A study of Rattus norvegicus with 2 samples.

Results

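HIPK2 and HIPK3 are homeodomain-interacting protein kinases whose genes give rise to circular RNAs (circRNAs), which were sequenced here in a study of bone cancer pain (BCP) whose labels give rat as the organism. All circRNAs whose only listed host gene was HIPK2 or HIPK3 were taken, which gave 4 of the 17260 considered, 1 of HIPK2 and 3 of HIPK3. In the BCP group, Walker256 cells (a carcinoma line of the rat mammary gland, passed through ascites) had been injected alive into the marrow cavity of the tibia. The control group received Walker256 cells boiled for 20 minutes through the same operation. Each group held 3 animals, killed 21 days after surgery, and gave 1 library, so there is no replicate and no test between the groups, and whether the RNA of the animals was pooled is not stated in the labels. For the sampled material the labels give both cancer cells and cells from the spinal cord of injected animals. Every ratio below divides the share of reads in the BCP library by that in the control library, and its exact 95% interval covers counting error only.

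HIPK kinases phosphorylate transcription factors and their cofactors in the nucleus. HIPK2 is best known for its part in the response to DNA damage, and HIPK3 was described as a partner of the androgen receptor and of the death-domain adaptor FADD. A circRNA forms when a splice donor joins an acceptor upstream of it, and a read across that back-splice junction counts the circle and not the linear mRNA of the gene. In human cells the abundant circle of HIPK3 consists of its long second exon alone, which also holds the start codon and lies between long introns with complementary repeats. The HIPK2 circle likewise comes from a single long exon and has been studied in mouse astrocytes.

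The BCP library held 151685 circular junction reads and the control library 159941. The identifiers and positions in the table are in human style and no genome build is named there. HIPK2 is placed on chromosome 7 and HIPK3 on chromosome 11, whereas the rat genes of these names lie on chromosomes 4 and 3 (RefSeq, GRCr8). Over all host genes whose name a rat gene also bears, 274 of 4522 (6.06%) had the same chromosome number in both. Human circBase identifiers were given for 9315 circRNAs, and 538 were placed on chromosomes 21 and 22, numbers that no gene of the rat annotation has. The table therefore does not match the labelled organism, whether its reads came from rats was not tested, and both libraries are called by their labels. Of the markers listed for the labelled spinal cord source, 2 of 26 for neurons, 2 of 18 for oligodendrocytes, 1 of 10 for astrocytes and 1 of 12 for microglia had a circRNA. For cell division the number was 22 of 29, and for epithelial carcinoma cells 1 of 16. The lists for skeletal muscle and blood gave 1 of 14 and 0 of 10. How readily each marker gene forms circRNAs was not tested, so a low count does not show that a cell type was absent. The neuronal markers with a circRNA were RIMS1, a presynaptic scaffold (90 BCP and 127 control reads), and the adhesion protein gene NRXN3 (48 BCP and 55 control reads). The astrocyte marker GJA1 had 4 BCP reads and was not listed in the control library, and the carcinoma marker KRT7 had 15 BCP and 2 control reads on different junctions. The neuronal markers RBFOX3 and SNAP25, the astrocyte marker GFAP and the carcinoma markers EPCAM and KRT8 had none listed.

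HIPK3 was represented almost entirely by 1 circRNA, hsa_circ_0000284, which ran from 33307959 to 33309057 on chromosome 11 of the table and spanned 1099 bp counting both ends. It had 633 reads in the BCP library and 541 in the control library. Scaled as RPM, to the junction reads of each library, this was 4173 in the BCP library and 3382 in the control library, and the ratio was 1.23 (1.10 to 1.39). It took 0.417% of all junction reads in the BCP library (exact binomial interval 0.385 to 0.451) and 0.338% in the control library (0.310 to 0.368). In such bulk libraries, a difference in the number of cells with the circRNA and a difference in copies per cell cannot be told apart. The circRNA ranked 11 by reads in the BCP library and 17 in the control library.

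HIPK2 had a single circRNA, hsa_circ_0001756, from 139415731 to 139416814 on chromosome 7 of the table, with a span of 1084 bp. It had 24 reads in the BCP library and 11 in the control library, which gave 158 RPM in the BCP library and 68.8 RPM in the control library. The ratio was 2.30 (1.08 to 5.20). It ranked 1171 in the BCP library and 2840 in the control library, below the HIPK3 circle of nearly the same span. Each circle is counted by reads over 1 junction, so these levels carry no length term. The leading HIPK3 circRNA had 26.4 times the reads of the HIPK2 circRNA in the BCP library (17.6 to 41.5) and 49.2 times in the control library (27.3 to 99.1).

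**Figure D1:**
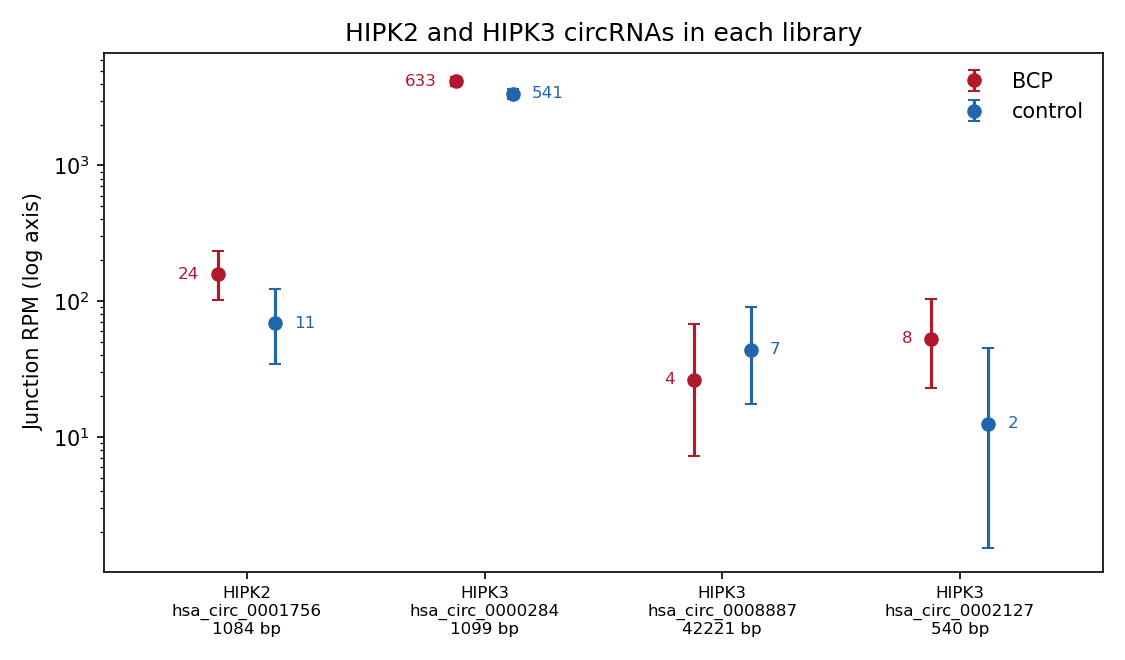
Junction RPM (log axis) of the 4 circRNAs of HIPK2 and HIPK3 in the BCP library (red, left) and the control library (blue, right), with exact 95% binomial intervals and the number of reads beside each point. The leading HIPK3 circRNA stands at 4173 RPM in the BCP library and 3382 RPM in the control library, and the highest of the other 3 is HIPK2 in the BCP library at 158 RPM.

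The other 2 circRNAs of HIPK3 were rare. The shorter, hsa_circ_0002127, ended at 33308498 and spanned 540 bp, all within the span of the leading circRNA. It had 8 reads in the BCP library and 2 in the control library (ratio 4.22, 0.84 to 40.8). The longer, hsa_circ_0008887, ended at 33350179 and spanned 42221 bp. It had 4 reads in the BCP library and 7 in the control library (0.60, 0.13 to 2.37). The shorter form was the more frequent of the pair in the BCP library and the less frequent in the control library. The intervals of both ratios include 1, and the pair was not tested against each other.

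The leading circRNA made up nearly all HIPK3 reads in both libraries. It took 98.1% in the BCP library (96.8 to 99.0) and 98.4% in the control library (96.9 to 99.2). The 540 bp form took 1.24% (0.54 to 2.43) in the BCP library and 0.36% (0.044 to 1.31) in the control library, while the 42221 bp form took 0.62% (0.17 to 1.58) in the BCP library and 1.27% (0.51 to 2.60) in the control library. Relative to the leading circRNA, the 540 bp form was 3.42 times as frequent in the BCP library as in the control library (exact conditional interval 0.68 to 33.2) and the 42221 bp form 0.49 times (0.10 to 1.93). Both intervals include 1, so a shift of either form against the leading circRNA was not detectable at this depth.

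Summed over its circRNAs, HIPK3 had 645 reads in the BCP library and 550 in the control library (1.24, 1.10 to 1.39), and ranked 19 in the BCP library and 23 in the control library among 5170 host genes. HIPK2, with its single circRNA, ranked 1302 in the BCP library and 2155 in the control library. Without the leading circRNA, HIPK3 was left with 12 reads in the BCP library and 9 in the control library. In the table no row naming several host genes included either of them, so no listed reads were left out of these sums.

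By size, 2 of the 4 circRNAs were called higher in the BCP library, which required 10 or more reads over both libraries and a ratio of 2 or more with 0.5 reads added to each. These were HIPK2 hsa_circ_0001756 (2.25 on this scale) and the 540 bp form of HIPK3 (3.59), and none was called lower. Over all circRNAs with 10 or more reads, 936 of 5415 (17.3%) were called higher and 919 (17%) lower. The 540 bp form had exactly 10 reads, and of the 332 circRNAs with that total 103 were called higher and 108 lower. HIPK2 had 35 reads in all. Of the other 63 circRNAs with the same total, 11 had at least as many BCP reads as HIPK2. The BCP reads of these 63 ranged from 5 to 35, with a median of 19.

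The interval left out 1 for 2 of the 4 circRNAs, the leading ones of HIPK2 and HIPK3, both on the higher side. Among all circRNAs with 10 or more reads it did so on the higher side for 694 (12.8%) and on either side for 1409 (26%). For abundant circRNAs such an interval was the more usual case. Of the 51 with 500 or more reads, 30 had an interval that left out 1 and 1 was past 2-fold, and 11 had a higher ratio than the leading circRNA of HIPK3. The ratios of the HIPK2 and HIPK3 circles could not be told apart, since the HIPK3 ratio was 0.54 times that of HIPK2 with an interval (0.23 to 1.15) that includes 1.

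**Figure D2:**
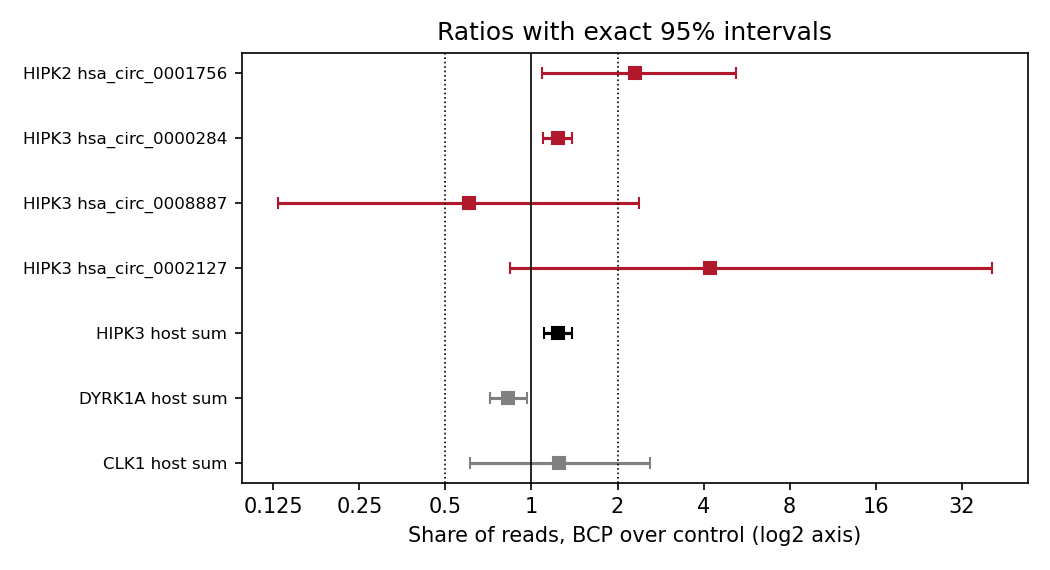
Share of reads in the BCP library over that in the control library (log2 axis) with exact 95% intervals, for the 4 circRNAs (red), the sum over HIPK3 (black) and the sums over the related kinases DYRK1A and CLK1 (grey). The solid line marks equal shares and the dotted lines 2-fold. The HIPK3 interval (1.10 to 1.39) is narrow and close to 1, and those of the 540 bp and 42221 bp forms cross 1.

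**Figure D3:**
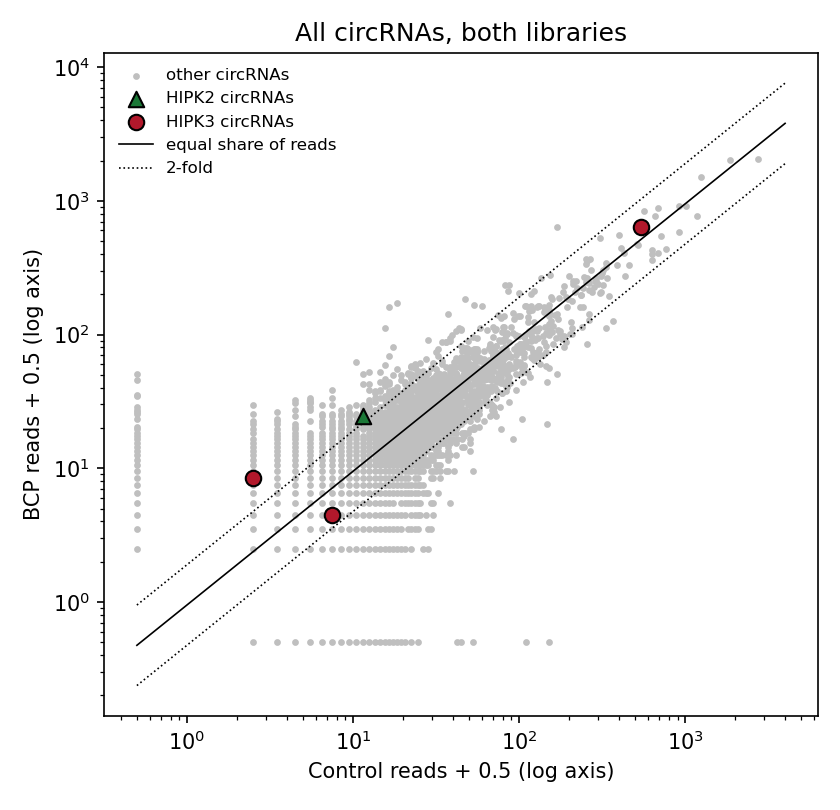
Reads of every circRNA with 0.5 added (log axes), BCP library on the vertical and control library on the horizontal axis, with HIPK3 circRNAs as red circles and the HIPK2 circRNA as a green triangle. The leading HIPK3 circRNA (633 BCP and 541 control reads) lies among the most abundant circRNAs and inside the dotted 2-fold lines, and the spread of all circRNAs around the line of equal shares widens at low reads.

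Circles next to HIPK3 in abundance gave ratios on both sides of 1. The 5 circRNAs just above hsa_circ_0000284 in total reads and the 5 just below it had 1507 down to 991 reads, and their ratios ran from 0.59 to 1.56. Ratios were above 1 for 2 of these 10, those of CDYL, a chromodomain corepressor, and of PLOD2, a collagen lysyl hydroxylase. The CDYL circRNA hsa_circ_0008285 had 769 reads in the BCP library and 655 in the control library (1.24, 1.11 to 1.38), close to the HIPK3 values. The PLOD2 circRNA had 832 BCP and 564 control reads (1.56, 1.40 to 1.73). The other 8 were below 1, with an interval that includes 1 for 1 of them, a circRNA of UBAP2 (0.95, 0.83 to 1.08).

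The leading circles were also set beside the circRNAs of similar span. In all, 435 circRNAs (2.52%) spanned 1000 to 1200 bp, with a median of 6 reads over both libraries, against a median of 5 reads and a median span of 5765 bp over all circRNAs. The leading HIPK3 circRNA had the most reads of the 435 and took 13.5% of their reads in the BCP library and 11.9% in the control library. The next, a circRNA of the transcription factor NFATC3, had 253 reads in the BCP library and 212 in the control library. The HIPK2 circRNA ranked 54 in this class.

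The 3 circRNAs of HIPK3 shared their lower-coordinate end, 33307959, and differed at the other, which gave the spans of 540, 1099 and 42221 bp. Of the 616 host genes with exactly 3 circRNAs, 84 (13.6%, 11.0 to 16.6) had an end common to all 3. The related kinase gene DYRK1A showed a similar arrangement on chromosome 21 of the table, where 7 of its 9 circRNAs shared the end at 38792601. Its reads were spread more widely over those forms. The shortest, hsa_circ_0001190 with a span of 1568 bp, had 196 reads in the BCP library and 234 in the control library, and a form of 10102 bp (hsa_circ_0006062) had 44 BCP and 79 control reads.

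**Figure D4:**
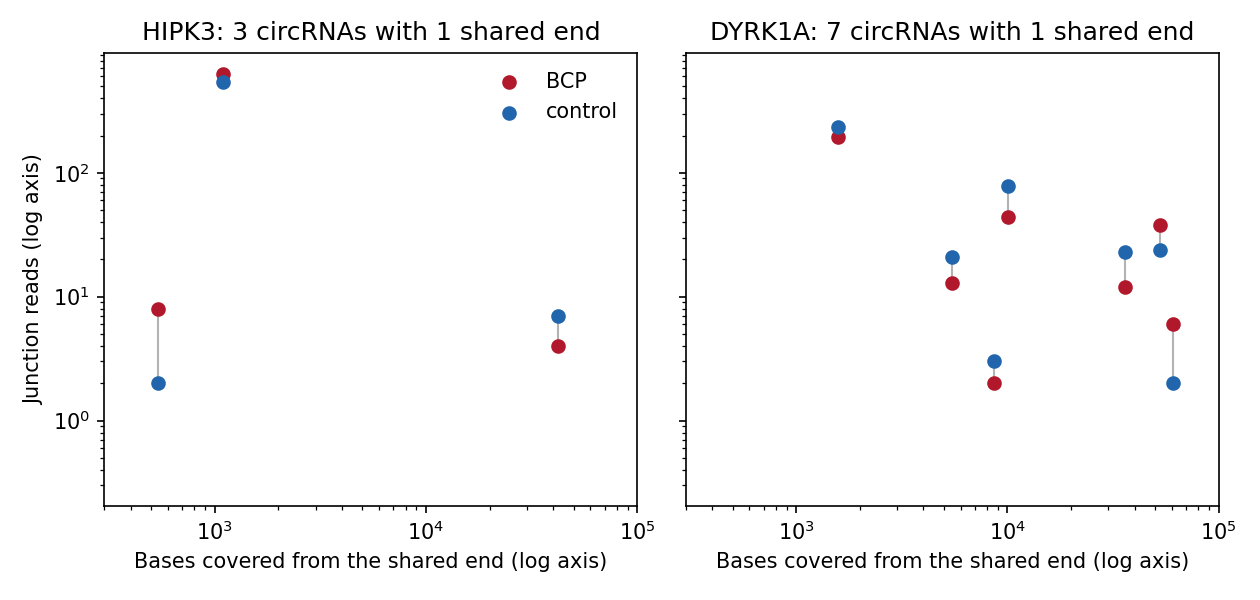
Junction reads (log axis) against the bases covered from the shared end (log axis) for the 3 circRNAs of HIPK3 and the 7 of DYRK1A that have 1 end in common, with BCP reads in red and control reads in blue. In HIPK3 the 1099 bp form exceeds both others in reads, while in DYRK1A the 1568 bp form is followed by several with 10 or more reads.

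Of the host genes with 2 or more circRNAs and 100 or more reads, few had so large a share on 1 circRNA. Among 686 host genes with 2 or more circRNAs and 100 or more reads, the leading circRNA took a median of 55.7% of reads (quartiles 40.7 and 76.0), and HIPK3, at 98.2% over both libraries, ranked 14. The highest was SMARCA5, a chromatin remodelling ATPase, at 99.6%, followed by CDYL at 99.5% and PTTG1IP at 99.5%. The 26 host genes with 1000 or more reads had a median of 14 circRNAs and a median leading share of 65.0%, and HIPK3 was one of 3 among them with 3 circRNAs. HIPK2 was one of 2064 host genes (39.9%) with a single circRNA, which by definition holds all reads of its gene. Their median was 4 reads, and 119 of them had more reads than HIPK2.

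**Figure D5:**
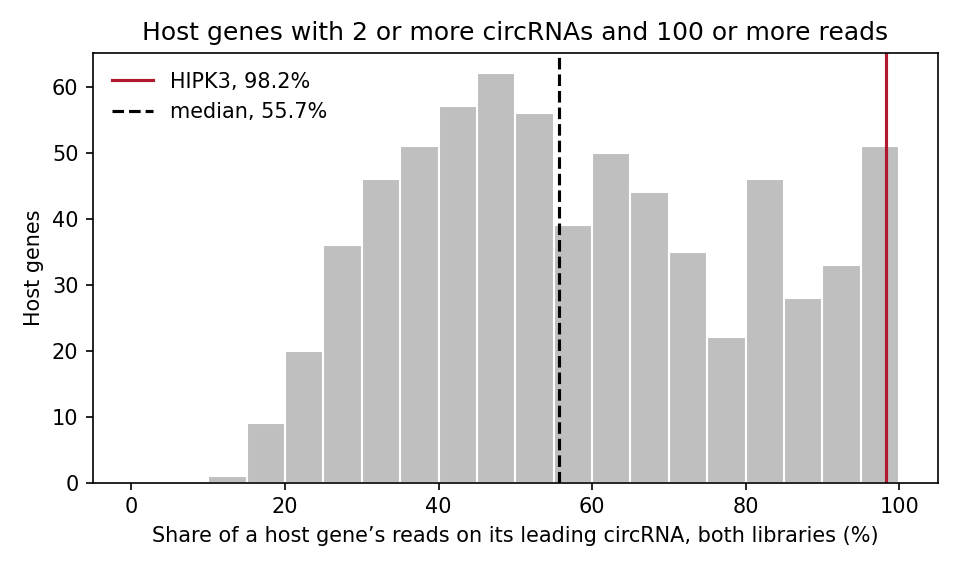
Number of host genes by the share of their reads, over both libraries, on their leading circRNA (5% bins), for the 686 host genes with 2 or more circRNAs and 100 or more reads. HIPK3 (red line, 98.2%) lies in the last bin and the median (dashed line) is 55.7%.

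Host genes nearest in level were found by the distance between log2 reads with 0.5 added over the 2 libraries. For HIPK3 these were MCTP1 (572 BCP and 541 control reads, distance 0.17), EXOC6B, a subunit of the exocyst (634 BCP and 484 control reads, 0.19), and the metalloprotease gene ADAMTS6 (738 BCP and 582 control reads, 0.21). They reached these sums through 27, 10 and 26 circRNAs, against 3 for HIPK3. Of these, 17, 7 and 19 were listed in both libraries, as were all 3 of HIPK3. For HIPK2, ANO6, a lipid scramblase and ion channel, had the same reads as HIPK2 (24 BCP and 11 control, distance 0), spread over 5 circRNAs. NOL10 followed with 25 BCP and 11 control reads (0.06), and GLT8D1 had 23 BCP and 11 control reads (0.06). Only 2 of the 5 circRNAs of ANO6 and 3 of the 6 of NOL10 were listed in both libraries. Their sums therefore partly compare different junctions, unlike the single junction of HIPK2.

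In the HIPK family itself, HIPK1 and HIPK4 had no circRNA listed in either library. Among 10 kinases of the neighbouring DYRK and CLK families, which regulate transcription and splicing, 5 had a circRNA. DYRK1A, a kinase encoded in the Down syndrome region, had 319 reads in the BCP library and 405 in the control library (0.83, 0.71 to 0.96). CLK1, which phosphorylates splicing factors, had 19 BCP and 16 control reads (1.25, 0.61 to 2.60). CLK2 was not listed in the BCP library and had 12 control reads, while CLK3 had 2 and PRPF4B 4 BCP reads with no circRNA listed in controls. Of the 3 with 10 or more reads, DYRK1A and CLK1 were within 2-fold and CLK2 was called lower. DYRK1B, DYRK2, DYRK3, DYRK4 and CLK4 had none listed.

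Of 59 genes listed as partners or substrates of HIPK kinases, 36 had a circRNA and 28 had 10 or more reads. Among these 28 host genes, 5 were called higher in the BCP library, 4 lower and 19 between, with a median log2 ratio of 0.09. Over all 3120 host genes with 10 or more reads, 427 (13.7%) were called higher and 434 (13.9%) lower, with a median of -0.01. Highest among members with 20 or more reads were WSB1, a ubiquitin ligase adaptor that targets HIPK2, with 17 BCP and 4 control reads on different junctions, and the kinase MAPK8 (27 BCP and 8 control reads; 3.56, 1.57 to 9.06). They were followed by the corepressor SKI (18 BCP and 7 control reads, ratio 2.71, 1.08 to 7.68). Only 2 of the 4 circRNAs of MAPK8 were listed in both libraries, so its ratio partly compares different junctions. The same holds below for STAT3 (2 of 8), CREBBP (2 of 7) and EP300 (3 of 14). Lowest were the transcription factor STAT3 (8 BCP and 28 control reads; 0.30, 0.12 to 0.68), the mitotic kinase CIT, with 5 BCP and 16 control reads on different junctions, and the transcription factor RUNX1 (7 BCP and 17 control reads; 0.43, 0.15 to 1.10). The acetyltransferase genes CREBBP (258 BCP and 306 control reads; 0.89, 0.75 to 1.05) and EP300 (34 BCP and 27 control reads; 1.33, 0.78 to 2.29) are outside the rule for named genes and were picked with their values known; they had intervals that include 1.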

How the data were processed

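The authors deposited 1 column of values per group. Per the file headers they are TPM, but the deposited values behave as RPM that the authors scaled to circular junction reads, since both columns sum to about the same total and each value, apart from a placeholder of 0.001, is an exact multiple (to 0.001 reads) of a step that is the same for all circRNAs of a library. Division by that step gave reads, with no length term. The lowest listed value was taken as 2 reads, an assumption on which all read counts and intervals rest. The placeholder was taken as not listed. Per the labels' protocols, RNA was depleted of ribosomal RNA and digested with RNase R, which degrades linear RNA. Per the submitters' processing notes, CASAVA 1.8, BWA and rn6 were used, with no role given. The circRNA caller is not given in the sources used here.

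Ratios, and ratios of ratios, have exact conditional 95% intervals, and shares exact binomial ones. Names of small RNAs were not counted as host genes. Left out of host sums were 779 circRNAs without exactly 1 host gene or with its name written as a date. Because the identifiers are human, circRNAs of chromosome Y and of genes marking X inactivation are not reported (1 circRNA), though library totals keep it. Named genes are every HIPK, DYRK and CLK kinase, the 3 highest and 3 lowest partners with 20 or more reads, the 3 host genes nearest in level and up to 5 circRNAs on either side of a leading circRNA in reads; a result that the rule names is not reported here. Outside the rule, and chosen with their values known, are CREBBP, EP300, SMARCA5, NFATC3 and the cell type markers named. The members and lists were chosen with earlier results of these data known. The calculation was tested on simulated data. Tools were Python 3.11.15 with scipy 1.17.1, numpy 2.4.6 and pandas 2.3.3, and matplotlib 3.10.9 for plots.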

Additional observations from a re-analysis of the deposited data

How the results depend on the processing

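The direction of the HIPK2 and HIPK3 ratios was kept under every other setting, but most settings could not change it. A minimum of 5 reads per junction, circBase identifiers only and rows with several host genes left both host sums as they were. Adding equal reads to both libraries could not reverse the host ratios. Median of ratios scaling, which lowers log2 ratios by 0.08, gave 2.18 (1.03 to 4.93) for HIPK2 and 1.17 (1.04 to 1.31) for the leading HIPK3 circRNA. Adding 2 reads gave 2.11 for HIPK2 and 2.64 for the 540 bp form, both still past 2-fold. Without its leading circRNA, HIPK3 was at 1.41 (0.54 to 3.78), on 21 reads. The number of circRNAs past 2-fold was 3956 with a minimum of 5 reads, 700 with 20 and 11993 with none, against 1855 with 10, and for host genes 1311, 434 and 2483 against 861. With a minimum of 20 reads the 540 bp form is not counted. No paired analysis was possible because each group has 1 library. The reads of the 540 bp and 42221 bp forms and of HIPK2 limit the precision, and nothing here separates the condition from differences between 2 single libraries.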
